A study of Mus musculus with 10 samples.

Results

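The genes described here are those of the cytosolic ribosomal proteins and their close paralogs in the mouse kidney. They were chosen by symbol from protein-coding genes of the GENCODE vM21 annotation, without a cut on their values but with earlier results of these data known. The annotation holds 84 such genes, and 83 of them were measured, 32 in the small (40S) and 51 in the large (60S) subunit, among 18296 coding genes and 27876 genes in all. Rpl10l was the 1 member that was not measured. Of the 83, 77 are core ribosomal proteins and 6 are paralogs (Rpl3l, Rpl7l1, Rpl22l1, Rpl36al, Rpl39l and Rps27l). Each gene was represented by its most abundant transcript.

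RNA was sequenced from the kidneys of wild-type mice on day 14. One group of 5 mice received quinolinic acid, a product of tryptophan breakdown that activates NMDA-type glutamate receptors, at 0.5 g/L in drinking water, and the other group of 5 received vehicle. The sample labels used here do not tell batches apart among the 10 samples, and the sources used here do not name strain, age or sex. The comparison asks what quinolinic acid in the drinking water does to kidney RNA.

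The values are those of the authors' deposited table, the finished edgeR likelihood-ratio test of vehicle against quinolinic acid for each of 85107 transcripts. For each transcript the authors' deposited table gives a log2 fold change (log2FC), a mean level, a test statistic, a p and an adjusted p. Values of single mice were not analysed here, so the spread between mice cannot be shown, and library depths are unknown. Every error below is an approximate standard error or 95% interval worked out from the test statistic. The header names both groups without saying which was divided by which. Each sign is kept as deposited, and none is read as more or less RNA after quinolinic acid.

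Ribosomal proteins are made in nearly equal numbers and are assembled with ribosomal RNA in the nucleolus into the 40S subunit, which decodes the mRNA, and the 60S subunit, which joins amino acids. Their mRNAs are among the most abundant of any cell and are short. Most begin with a C followed by a run of pyrimidines, the terminal oligopyrimidine or TOP motif, through which the mTOR pathway and the protein LARP1 control their translation. Because mRNA translation can change without mRNA level, RNA sequencing sees only one side of this control. In the kidney, tubule growth and protein synthesis after injury or nephron loss are known to draw on the same pathway.

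A pyrimidine run near the annotated start was present at both ends of the members' range of fold changes, and windows from both ends follow. Each holds 30 bases of the sense strand near the RefSeq transcription start (build GRCm38.p6), 5′ to 3′, with the longest run of C and T in capitals. Rps12, Rplp2 and Rps10 stand at the positive end of the members and Rpl35, Rpl11 and Rpl7l1 at the other, and Rpl39l and Rpl3l are scarce paralogs.
Rps12, chr10:23787177-23787206, minus strand: gccggCCTTTTCCCCTgccgccgccgactt
Rplp2, chr7:141447641-141447670, plus strand: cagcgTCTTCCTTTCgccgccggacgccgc
Rps10, chr17:27635223-27635252, minus strand: gcacgCCCCTTCCTTTCCagcctccgcctc
Rpl35, chr2:39005114-39005143, minus strand: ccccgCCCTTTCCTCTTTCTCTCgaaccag
Rpl11, chr4:136053356-136053385, minus strand: ggaagTCTCCCTCTCTCTTCCTgttctcca
Rpl7l1, chr17:46782664-46782693, minus strand: gcgggCCTCTCTaccccgcccggtgaggct
Rpl39l, chr16:10170197-10170226, plus strand: cactgCCTCTCCCTagctcccaggcctttc
Rpl3l, chr17:24727846-24727875, plus strand: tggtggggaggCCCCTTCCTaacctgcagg
The run was 11 bases long in Rps12, 18 in Rpl35, 17 in Rpl11 and 7 in Rpl7l1. That of Rpl7l1 is shorter than the 8 bases counted as a run below. Counted from the RefSeq start, the runs began at 9 in Rps12, -7 in Rpl35, 14 in Rpl11 and -32 in Rpl7l1. For Rpl35 and Rplp2 the RefSeq start lay 493 and 281 bases from the GENCODE start of the coding transcript.

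RefSeq promoter windows matched 63 members. From 50 bases before to 50 after the start, 51 of the 63 (81.0%) held a run of at least 8 pyrimidines on the sense strand, as did 31.8% of 9836 promoters of other coding genes. On the opposite strand the shares were 25.4% and 34.6%. The letters CTTTC, searched on both strands and able to lie inside such a run, were on the sense strand of 49.2% of member promoters and 9.54% of the others. On the opposite strand they were in 12.7% and 9.18%. CTTTT was on the sense strand of 23.8% of member promoters and 7.38% of the others. A match is a description of the letters in this window and not a mapped start site. Among members whose coding transcript reached a mean of 1 CPM (the authors' unit of level, reads scaled to a common library size), the median log2FC in the authors' deposited table was 0.17 for the 48 with a run of at least 8 and 0.17 for the 12 without.

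Nearly all members had a small log2FC of the same sign, and none passed the test. The sign in the authors' deposited table was positive for 82 of 83 members and for 65.8% of coding genes. Among genes of at least 1 CPM it was positive for 80 of 80 members and 71.8% of coding genes, and from 10 CPM for 66 of 66 members and 73.9% of coding genes. The members' median log2FC was 0.17 with a middle 50% from 0.14 to 0.21 in the authors' deposited table, and the median of coding genes was 0.07. No member reached an adjusted p under 0.05 in the edgeR likelihood-ratio test, a call made for 0.0141% of all transcripts and 0.0273% of coding genes. Rps12 was the 1 member with an unadjusted p under 0.05, a mark reached by 5.26% of coding genes in the authors' deposited table. The smallest adjusted p of any member in the authors' deposited table was 0.794. Genes of 1 complex are not replicates, and without single libraries it was not tested whether 1 sample sets the shared sign.

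The members lay close together compared with their errors. Among the 80 of at least 1 CPM the standard deviation of the log2FC was 0.06, while the median approximate standard error of a single gene was 0.16. The approximate 95% interval included 0 for 82 members, and for 82 it lay within 1 log2 unit of 0 on either side. These are errors of single genes in the same mice, and they do not measure the error of a difference between members. The order of the members by fold change was not tested. The plot of all members by subunit shows the overlap of the intervals.

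**Figure D1:**
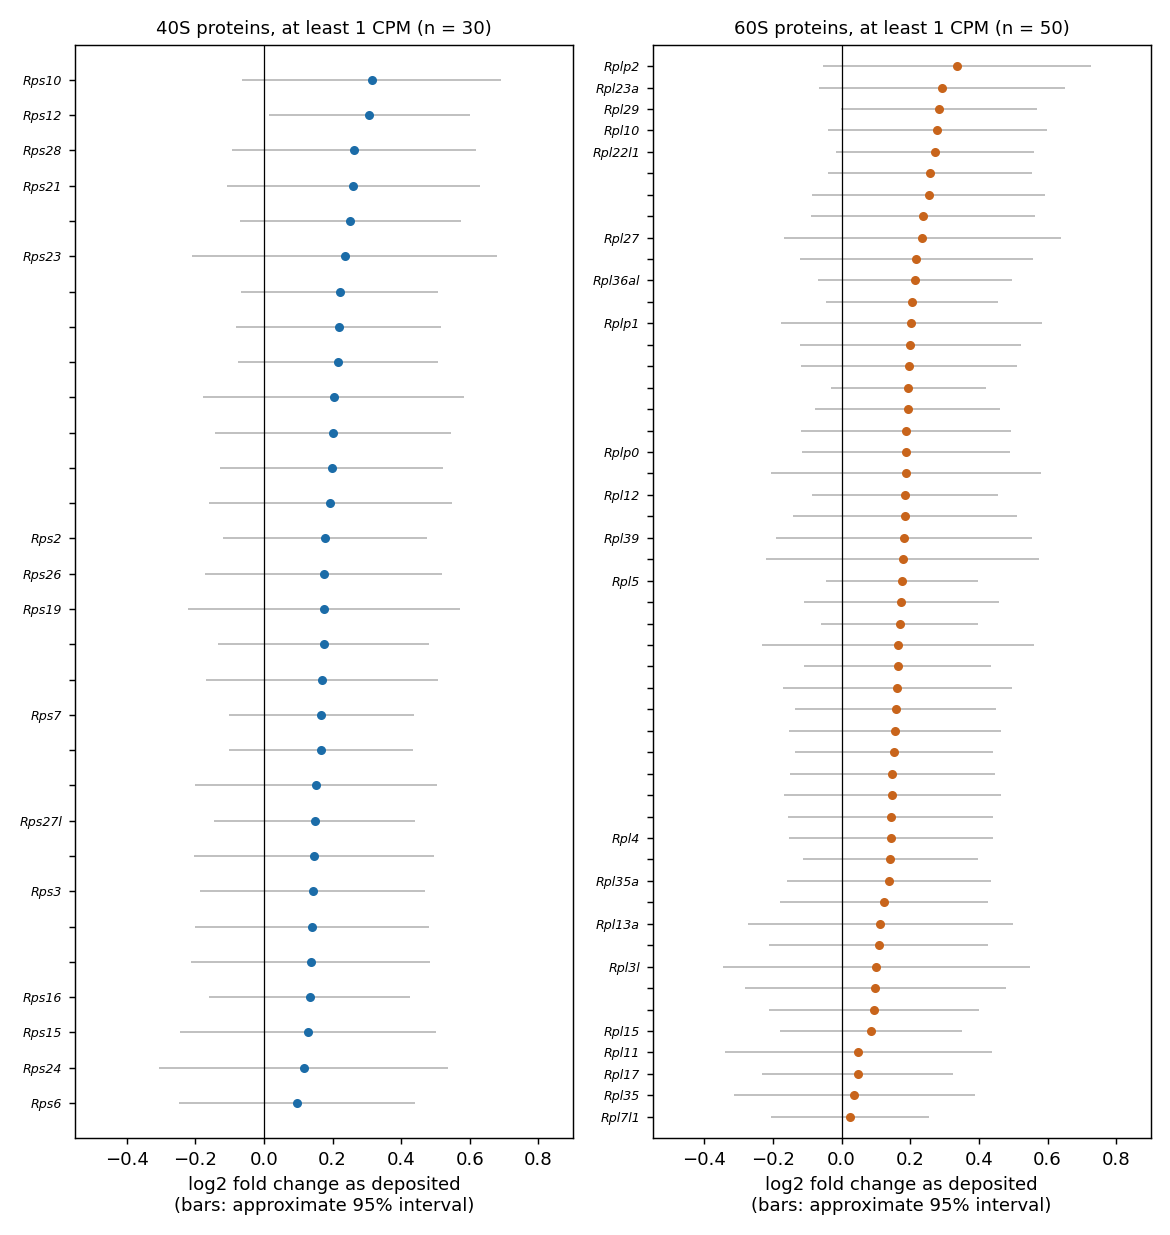
Log2FC as deposited (x axis, log2 units) for the 30 members of the 40S subunit and the 50 of the 60S subunit with a mean of at least 1 CPM; points are the values of the authors' table, bars approximate 95% intervals, and names are given for some of the genes. All points lie right of 0, from 0.02 (Rpl7l1) to 0.34 (Rplp2), and the interval of Rps12 alone leaves out 0.

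In the small subunit the 32 members all had a positive sign in the authors' deposited table, with a median log2FC of 0.18. The order below is that of members of at least 1 CPM, and the scarce Rps27 (0.32 at 0.257 CPM) is described with the levels. Rps12, a protein in the beak of the subunit head (chromosome 10, 23785183 to 23787275), had a log2FC of 0.31 (95% interval 0.01 to 0.60) at a mean of 12.7 CPM according to the authors' deposited table. Its p was 0.0400 and its adjusted p 0.794 in the edgeR likelihood-ratio test of the authors' deposited table. Rps10, which lies near the mRNA entry and is ubiquitinated when ribosomes collide (chromosome 17, 27630418 to 27636669), had a log2FC of 0.31 (-0.06 to 0.69) at 60.4 CPM, with p = 0.102 in the authors' deposited table. The difference between Rps12 and Rps10 was not tested. Rps28 and Rps21 followed in the authors' deposited table, both at a log2FC of 0.26, with p = 0.147 and 0.165.

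The smallest log2FCs of the small subunit, again from 1 CPM upwards, were still positive. Rps6, the subunit protein phosphorylated by S6 kinase downstream of mTOR (chromosome 4, 86854660 to 86857412), had 0.10 (-0.25 to 0.44) in the authors' deposited table. Rps24, a protein needed for processing of 18S ribosomal RNA, had 0.12 (-0.31 to 0.54) and a mean of 217 CPM according to the authors' deposited table. Rps15 and Rps16, proteins of the subunit head, both stood at a log2FC of 0.13 in the authors' deposited table. Their intervals overlapped that of Rps12.

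In the large subunit 50 of 51 members had a positive sign, with a median log2FC of 0.17 in the authors' deposited table. Rplp2, an acidic protein of the stalk that recruits the translation GTPases (chromosome 7, 141447370 to 141451585), stood highest of the 83. Its log2FC was 0.34 (-0.05 to 0.73), a 1.26-fold difference at 78.2 CPM, with p = 0.0910 in the authors' deposited table. Next in the authors' deposited table were Rpl23a at a log2FC of 0.29 (-0.06 to 0.65), Rpl29 at 0.28 (-0.0025 to 0.57, p = 0.0520) and Rpl10 at 0.28 (-0.04 to 0.60). Rpl23a lies at the mouth of the peptide exit tunnel, and Rpl10 is one of the last proteins to join the 60S subunit and reaches towards its catalytic centre.

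At the other end of the large subunit, among members of at least 1 CPM, were 4 genes close to 0; Rpl39l, which is scarcer, is described with the paralogs. Rpl35, which lies beside the exit tunnel (chromosome 2, 39001580 to 39005624), had a log2FC of 0.04 (-0.31 to 0.39) and a mean of 36.1 CPM according to the authors' deposited table. Rpl11, a partner of the 5S ribosomal RNA that binds the p53 regulator MDM2 when assembly is disturbed, had 0.05 (-0.34 to 0.44) and a mean of 2.10 CPM according to the authors' deposited table. Rpl17, another protein of the tunnel, had 0.05 (-0.23 to 0.33) and the paralog Rpl7l1 0.02 (-0.21 to 0.25) in the authors' deposited table.

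Grouped by place in the ribosome, every region set here had positive values. The 4 genes of the GTPase stalk and its base (Rplp0, Rplp1, Rplp2 and Rpl12) had log2FCs of 0.18 to 0.34, with a median of 0.20 in the authors' deposited table. Rplp0, the protein that anchors the stalk, and Rplp1, the partner of Rplp2, stood at 0.19 and 0.20 in the authors' deposited table, both with intervals that included 0. The 5S particle proteins Rpl5 and Rpl11 had log2FCs of 0.18 and 0.05, and the 5 proteins of the exit tunnel and its rim ran from 0.04 to 0.29 in the authors' deposited table. Near the mRNA entry and exit, Rps2, Rps3, Rps26 and Rps28 had a median of 0.18, and the decoding region proteins Rps15 and Rps23 had 0.13 and 0.24 in the authors' deposited table. Differences between these groups were not tested.

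Of the genes mutated in Diamond-Blackfan anemia, an inherited failure of red cell production, 8 were set as a group. All 8 (Rps7, Rps10, Rps19, Rps24, Rps26, Rpl5, Rpl11 and Rpl35a) had a positive sign, with a median log2FC of 0.17 and a smallest p of 0.102 in the authors' deposited table. Rps19, the gene most often mutated in the disease, had 0.17 (-0.22 to 0.57) and a mean of 116 CPM according to the authors' deposited table. The group's median was that of all members at this rounding.

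The paralogs differed from each other mainly in level. Levels between genes are compared here per kilobase of the coding transcript, on the scale of mean CPM per kb computed from the authors' deposited table. Rps27l, a paralog of Rps27 that p53 can induce, stood at 108 CPM per kb, and Rpl22l1, a paralog of the large subunit protein Rpl22, at 57.7. Rpl36al stood at 19.7 and Rpl7l1, which is reported in pre-60S particles, at 14.7 CPM per kb. Rpl3l, known from skeletal and heart muscle, stood at 0.767, and Rpl39l, known from testis, at 0.0493 CPM per kb. The 2 paralogs of muscle and testis were thus the scarcest of the 6.

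Muscle and germ cell RNA were checked as a measure of other tissue in these samples. The 6 muscle markers, among them Ckm, Acta1 and Myh7, all had means of 0.241 CPM or less in the authors' deposited table, and the 3 germ cell markers measured had 0.462 CPM or less. Kidney markers were abundant, with 103 to 1430 CPM for 6 proximal tubule genes and 374 and 1274 CPM for Slc12a1 and Umod of the thick ascending limb in the authors' deposited table. The 4 red cell genes had 1.77 to 39.6 CPM and the 6 lymphocyte genes 0.171 to 25.9 CPM in the authors' deposited table. Positive signs were held by all 10 of these blood cell genes, all 13 markers of distal convoluted tubule, collecting duct, podocyte and endothelium, 4 of 6 of proximal tubule and 0 of 2 of thick ascending limb in the authors' deposited table, and by 65.8% of coding genes. Their part in the members' values was not tested. In a whole organ, fewer cells of a type and less RNA per cell cannot be told apart.

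No paralog passed the test. Rpl22l1 had a log2FC of 0.27 (-0.02 to 0.56, p = 0.0653), Rpl36al 0.21 (-0.07 to 0.50) and Rps27l 0.15 (-0.15 to 0.44) in the authors' deposited table. Rpl3l had 0.10 (-0.35 to 0.55) at 1.06 CPM, and Rpl39l had -1.40 (-3.74 to 0.94) at 0.0397 CPM, the 1 negative sign among the 83 in the authors' deposited table. At that level Rpl39l rests on very few reads, and its interval spans more than the values of all other members.

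How far reads can tell a paralog from its parent depends on how different they are. Rpl39 and Rpl39l, of equal coding length, share 85.0% of their coding sequence by edit distance, and Rpl36a and Rpl36al 87.7%. The share was 74.1% for Rpl3 and Rpl3l, 69.3% for Rpl22 and Rpl22l1, 63.5% for Rps27 and Rps27l, and 56.7% for Rpl7 and Rpl7l1. The first 60 coding bases of the 2 closest pairs are shown, from GENCODE vM21 transcripts, with the bases that differ within each pair in capitals.
Rpl39: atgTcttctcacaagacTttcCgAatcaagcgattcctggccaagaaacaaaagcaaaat
Rpl39l: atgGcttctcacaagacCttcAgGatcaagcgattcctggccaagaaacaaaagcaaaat
Rpl36a: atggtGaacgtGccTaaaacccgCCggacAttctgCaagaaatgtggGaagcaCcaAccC
Rpl36al: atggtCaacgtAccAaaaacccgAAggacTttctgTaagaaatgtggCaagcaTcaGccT
The first pair differed at 4 of these bases and the second at 11. In the authors' deposited table Rpl39 had 100 CPM and Rpl39l 0.0397, and Rpl36al had 25.1 CPM while the coding transcript of Rpl36a had 0.680.

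Shared sequence bears on the level at which many members were listed. Ribosomal protein genes have many processed copies in the genome, and a read from such a stretch maps to several places. For each member the share of 50-base windows of its coding transcript that occurs in no other annotated gene was counted. It ran from 1.35% in Rps27 and 4.91% in Rpl35 to 100% in members that include Rpl3l and Rpl39l. Windows found in a gene that overlaps the member count as shared, and they make up 54.96% of those of Rpl35. Rps27, a zinc finger protein of the 40S subunit, shared 98.6% of its windows with the coding copy Rps27rt, and Rps12 shared 85.7% with Rps12-ps3.

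Members with little sequence of their own were listed at lower levels per length. The median was 23.2 CPM per kb for the 20 members under 25% unique, 71.2 for 24 members from 25% to under 50%, 83.6 for 25 members from 50% to under 75% and 83.03 for 14 members of 75% or more, computed from the authors' deposited table. Across the 83 members Spearman's rho between the unique share and the level per kb was 0.27. With 100-base windows it was 0.46. The members share libraries and sequence, so rho is a description. Both measures also depend on the length of the listed coding transcript, which was 5130 nt for Rps15a. The part of that length in rho was not tested. The sources used here do not say how multi-mapping reads were counted, and the part of that counting in these levels was not tested.

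**Figure D2:**
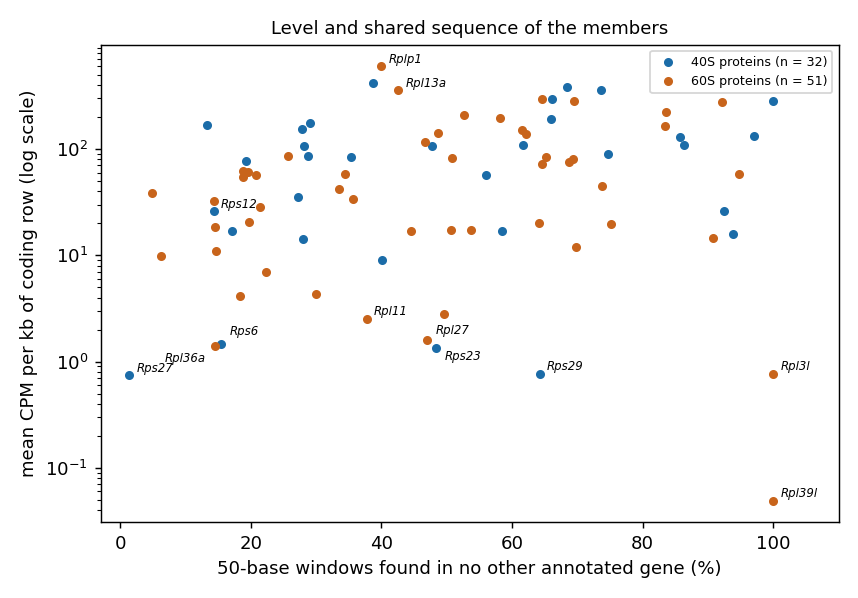
Mean CPM per kb of the coding transcript (y axis, log scale) against the percent of its 50-base windows found in no other annotated gene (x axis) for the 83 members, by subunit. The lowest core members include Rps27 (1.35% unique) on the left and also Rps29 (64.2% unique), and Rpl3l and Rpl39l are low at 100%.

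Some core proteins were listed at levels far under those of their neighbours in the same subunit. Rps27 stood at 0.744 CPM per kb, Rps29 at 0.763, Rps23 at 1.35, Rps6 at 1.45 and Rpl27 at 1.60, computed from the authors' deposited table. Rplp1 stood at 599, Rps24 at 419, Rps15 at 381 and Rpl13a at 357 CPM per kb on the same scale. Apart from the stalk protein Rplp1, each of them is a single-copy part of the ribosome. Shared sequence did not order the levels by itself: Rps18 was 13.3% unique and stood at 167 CPM per kb, and Rps29 was 64.2% unique and stood at 0.763. The levels of the low members are therefore uncertain as measures of the mRNA, and so are their fold changes. In the authors' deposited table those were 0.32 (-0.25 to 0.89) for Rps27 and 0.24 (-0.17 to 0.64) for Rpl27. According to the authors' deposited table, the coding transcript of Rps29, whose level is given here, had a log2FC of -0.07. The most abundant transcript of Rps29 retains an intron and had 0.20 (-0.42 to 0.82) in the same source.

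Fold change was only weakly related to shared sequence among the members. Spearman's rho between unique share and log2FC was -0.22 over 79 members whose coding transcript reached 1 CPM. The class medians of log2FC, from least to most unique, were 0.19, 0.19, 0.17 and 0.15, computed from the authors' deposited table. The most unique class ran from 0.02 (Rpl7l1) to 0.25 (Rpl8) once Rpl39l, under 1 CPM, was left out.

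The copies named as pseudogenes of a ribosomal protein gene were hardly detected. Copies under other symbols were not counted, and some of those counted are annotated as coding. Of named ribosomal protein pseudogenes the authors' deposited table held 182 transcripts of 181 genes, 6 of them at 1 CPM or more and none above 1.74 CPM. Their median log2FC was 0.00, with 82 positive and 63 negative signs in the authors' deposited table. The rest had a log2FC of exactly 0, so the median and the share of signs rest partly on transcripts of very low level without a direction. A positive sign was thus held by 45.1% of them, and by 42.7% of all pseudogene transcripts. At an unadjusted p under 0.05 there were 7 of 182, where the share of all pseudogene transcripts was 3.25%, and none passed the adjusted test in the authors' deposited table. The most abundant, Rps24-ps3, had a log2FC of -0.05, while Rps24 had 0.12 in the authors' deposited table.

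Transcripts of the same gene, which can hold the same reads, gave nearly the same value. The authors' deposited table held 355 transcripts of the 83 members, 317 of them at 1 CPM or more, and 2 of those had a negative sign. Both were short coding transcripts of Rpl15, at -0.03 and -0.06, while its main transcript had a log2FC of 0.09 in the authors' deposited table. Of the 355, 7 (1.97%) from 5 genes had an unadjusted p under 0.05, where 6.08% of all transcripts did. They belonged to Rps12, Rpl7a, Rpl22l1, Rpl6 and Rpl24, and transcripts of 1 gene share reads. Among 56 genes with more than 1 transcript of at least 1 CPM the median range within a gene was 0.02 log2 units, and the widest was 0.18 in Rps18, computed from the authors' deposited table.

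The most abundant transcript was annotated as coding for 64 members, as retaining an intron for 15 and as another type for 4. Transcripts that retain an intron can hold unspliced or slowly spliced RNA, and members of this family are known to control some of their own splicing. For 40 genes with a coding and an intron-retaining transcript at 1 CPM or more, the latter had the higher log2FC in 21, with a median difference of 0.00. The 21 include Rps21 and Rps18, whose differences of 5.96e-10 and 8.44e-10 amount to ties. In 26 of the 40 the values lay within 0.01 of each other. The sources used here do not say how reads shared by both transcripts were counted. Both transcripts stood at 140.719 CPM in Rps21 and at 93.6394 CPM in Rps18, so the same reads appear to be counted for both. Close values in such pairs are therefore not a separate measure of intron retention.

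The pairs and transcripts that parted most are given here, and no test was made of the difference within a gene. Rpl5 had a log2FC of 0.30 (-0.05 to 0.65) in an intron-retaining transcript at 2.36 CPM and 0.18 (-0.05 to 0.40) in its coding transcript at 19.97 CPM according to the authors' deposited table. Rplp0 had 0.11 in the intron-retaining and 0.19 in the coding transcript, in the authors' deposited table. Rpl7a, which has 7 transcripts of at least 1 CPM, split into 4 at a log2FC of 0.14 and about 50 CPM and 3 at 0.28 and about 19 CPM according to the authors' deposited table. The p of the 3 ran from 0.0335 to 0.0379 in the authors' deposited table, and each adjusted p was 0.794.

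**Figure D3:**
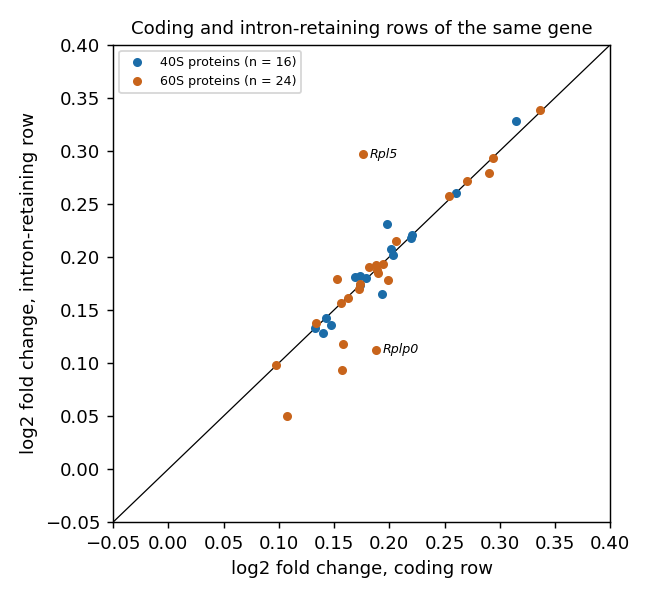
Log2FC of the most abundant intron-retaining transcript (y axis) against that of the most abundant coding transcript (x axis) for 40 members with both at 1 CPM or more, by subunit; the line marks equal values. Most points lie on the line, and Rpl5 stands above it at 0.30 against 0.18. Both transcripts of a gene can hold the same reads.

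Many ribosomal protein genes carry small nucleolar RNAs in their introns, which guide modification of ribosomal RNA. The authors' deposited table held 58 of them inside 30 member genes, none above 0.710 CPM. Their median log2FC was 0.23, and 40 of 58 were positive in the authors' deposited table, as were 49.5% of all small nucleolar RNA transcripts. An unadjusted p under 0.05 was reached by 3 of 58, and by 5.56% of all small nucleolar RNA transcripts, and none passed the adjusted edgeR likelihood-ratio test. Of the 3, those named here, after their values were seen, were Snora64 within Rps2 (0.58 at 0.301 CPM) and Gm22879 within Rpl7a (1.01 at 0.107 CPM) in the authors' deposited table. Their host genes stood at 0.18 and 0.14 in the authors' deposited table. Few reads lie behind such values, and reads of the unspliced host cannot be told apart from those of the small RNA.

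Fold change followed transcript length over all coding genes, and the members are short. Their median length was 937 nt, against 3114 nt for the 12552 other coding genes from 1 CPM upwards. Spearman's rho between log2FC and length was -0.52 over those other genes and -0.23 over the 80 members, both across genes, which are not independent. Computed from the authors' deposited table, the median log2FC of other genes under 500 nt was 0.20, and that of the 6 members of this length 0.23. From 500 to under 1000 nt it was 0.18 for 569 other genes and 0.18 for 38 members, and from 1000 to under 1500 nt 0.16 for 1086 others and 0.17 for 17 members. In these classes 87.8%, 93.8% and 92.1% of the other genes had a positive sign.

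In the longer classes the members' medians lay above those of other genes. From 2000 to under 3000 nt the medians were 0.10 for 2862 others and 0.16 for 6 members, and from 3000 to under 6000 nt 0.04 for 4977 others and 0.19 for 2 members, computed from the authors' deposited table. These classes hold few members, and no test was made of the difference. They include Rpl12 and Rpl35a by intron-retaining transcripts of 2863 and 2858 nt, while their coding transcripts have 1242 and 519 nt. Once the trend on length and level was taken out, 44 of 80 members had a positive value, with a median of 0.01, and 6213 of the 12552 other genes did. With GC content removed as well, 46 of 80 did. The positive sign shared by the members was thus held by most other coding genes in each length class that holds members. The share ran from 64.3% at 3000 to under 6000 nt to 93.8% at 500 to under 1000 nt. Length here is that of each gene's most abundant transcript, of any type.

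**Figure D4:**
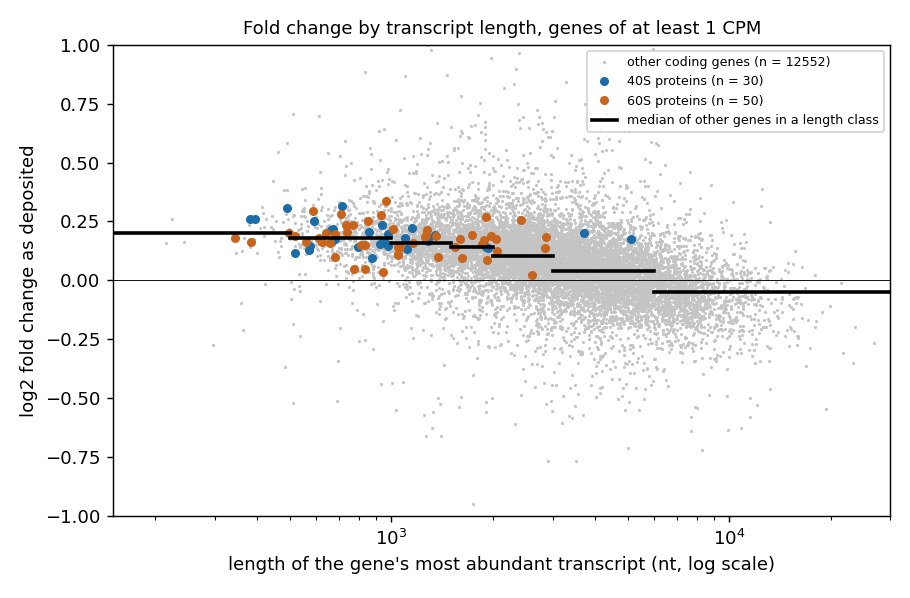
Log2FC as deposited (y axis, log2 units, drawn from -1 to 1) against transcript length in nt (x axis, log scale) for coding genes of at least 1 CPM; grey points are 12552 other genes, 26 of them outside the drawn range, coloured points the members by subunit and black bars the medians of other genes in a length class. Members under 1500 nt lie around the bars, which fall from 0.20 to -0.05 with length.

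Once the trend was taken out, the members spread to both sides of 0. The highest residuals, in log2 units above the value for a gene's length and level, were 0.17 for Rps15a, 0.16 for Rplp2, 0.15 for Rps20 and 0.15 for Rpl30. Rpl22l1 had 0.14, Rps10 0.12, Rps12 0.11 and Rpl10 0.10. The lowest were -0.15 for Rpl35, -0.14 for Rpl17, -0.13 for Rpl11, -0.10 for Rpl41 and -0.10 for Rps24. Rps15a, Rps20, Rpl30 and Rpl41 are named because of these values. Each residual rests on the length of the listed transcript, 5130 nt for Rps15a and 3706 nt for Rps20. Rpl30 and Rpl22l1 were listed by intron-retaining transcripts of 2412 and 1908 nt, while their coding transcripts have 886 and 552 nt. Residuals were not computed with the coding lengths. Apart from Rps15a, whose 0.170 lies just above it, these residuals are smaller in size than the median approximate standard error of 0.164. That error belongs to the log2FC of a single gene, and no error of a residual was computed. The standard deviation over the 80 members was 0.07.

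Fau, which encodes Rps30 joined to a ubiquitin-like protein, and Rack1, a scaffold on the 40S head, are ribosomal proteins known under other symbols. Their log2FC was 0.16 (-0.19 to 0.50) for Fau and 0.15 (-0.14 to 0.45) for Rack1 in the authors' deposited table, and both intervals included 0.

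Genes that make or use ribosomes were also set beside the members, from lists chosen with earlier results known. No gene of any of these lists reached an adjusted p under 0.05 in the authors' edgeR likelihood-ratio test, a call made for 0.0273% of coding genes. The counts of these lists stand beside 65.8% of coding genes with a positive sign and 5.26% with an unadjusted p under 0.05. Of 35 initiation factors 30 had a positive sign and 0 had an unadjusted p under 0.05, with a median log2FC of 0.10 in the authors' deposited table. Eif3f (0.25, p = 0.0625), a subunit of the initiation factor eIF3, and Eif1 (0.26, p = 0.0716), which helps select the start codon, came first by p in the authors' deposited table. Of 13 elongation and termination factors 9 were positive, with a median of 0.05, and the elongation factor subunits Eef1g and Eef1d stood at 0.19 and 0.18 in the authors' deposited table.

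Other mRNAs with a TOP motif formed a further list. Every one of the 17 was positive, with a median log2FC of 0.15 and 0 at an unadjusted p under 0.05 in the authors' deposited table. Most genes of this list, among them Eef1g, Eef1d, Eif3f and Rack1, also stand in the lists above, so it is not a separate set.

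The machinery upstream of the ribosome was described by 2 lists. Of 48 ribosome assembly factors 38 were positive, with a median log2FC of 0.08, and 1 had an unadjusted p under 0.05 in the authors' deposited table. That was Nop53 (0.29, 0.02 to 0.56, p = 0.0348), a nucleolar factor of 60S maturation, followed by Tsr3 (0.23, p = 0.0780), which modifies 18S ribosomal RNA, in the authors' deposited table. Of 19 RNA polymerase I genes 16 were positive, with a median of 0.09, and the smallest p belonged to Taf1c (0.26, p = 0.0593) and the largest polymerase subunit Polr1a (-0.19, p = 0.0972) in the authors' deposited table. With the length and level trend removed both medians turned negative, to -0.03 and -0.04.

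The regulators of ribosomal protein synthesis had both signs. Of 17 genes of mTOR and TOP control 9 were positive and 8 negative, with a median log2FC of 0.00 in the authors' deposited table. At an unadjusted p under 0.05 there were 3 genes of the 17, Myc, Eif4ebp1 and Eif4ebp3, all positive, in the authors' deposited table. That mark was reached by 5.26% of coding genes. Myc, a transcription factor that drives ribosome production, had 0.90 (0.43 to 1.37, p = 0.000193, adjusted p 0.258), and Eif4ebp1, a repressor of cap-dependent initiation that mTOR inactivates, 0.36 (0.08 to 0.65, p = 0.0134) in the authors' deposited table. Eif4ebp3, a repressor of the same family, named after its value was seen because the count is small, had 0.30 (0.0022 to 0.59, p = 0.0484) in the authors' deposited table. Mtor, Larp1 and the S6 kinase gene Rps6kb1, chosen for their place in the pathway after their values were seen, stood at -0.03, -0.02 and -0.01 in the authors' deposited table. These genes are long, with a median of 5720 nt against the members' 937 nt. With length and level taken out, the list's median was 0.0067 and that of the members 0.0095. On the same scale it was 0.0094 for the other TOP mRNAs, 0.0017 for initiation factors and 0.0049 for elongation and termination factors.

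Mitochondrial ribosomal proteins and proteasome subunits, made for other large complexes, gave a measure of how particular these values were. Of 78 mitochondrial ribosomal proteins 77 had a positive sign, with a median log2FC of 0.16 and 3 at an unadjusted p under 0.05 in the authors' deposited table. Of 40 genes with the symbols of proteasome subunits, 34 were positive, with a median of 0.12 in the authors' deposited table. Such symbols can take in a gene that is not a subunit. The 1 with an unadjusted p under 0.05 in the authors' edgeR likelihood-ratio test had a negative log2FC, -1.05 at 0.163 CPM. Over all coding genes 65.8% were positive and 5.26% had an unadjusted p under 0.05. The middle 50% of the mitochondrial set ran from 0.12 to 0.20 and overlapped that of the cytosolic members. Differences between the sets were not tested.

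**Figure D5:**
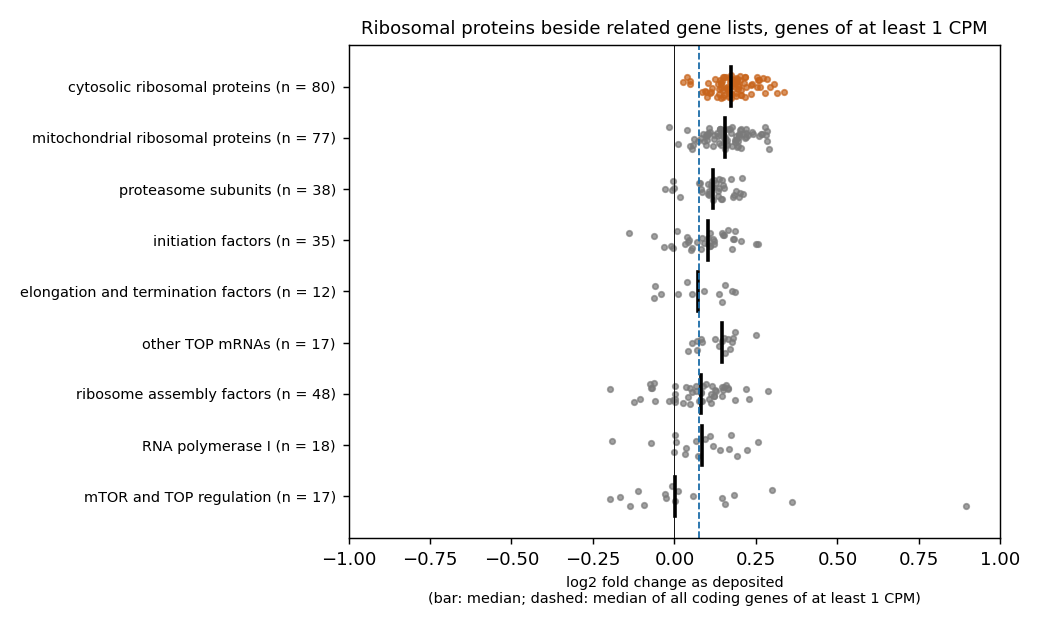
Log2FC as deposited (x axis, log2 units) of each gene of at least 1 CPM in the cytosolic ribosomal proteins (orange, n = 80) and 8 comparison lists (grey); bars are medians and the dashed line is the median of all coding genes of at least 1 CPM, 0.08. The cytosolic and mitochondrial ribosomal proteins have medians of 0.17 and 0.16, and the genes of mTOR and TOP control spread to both sides of 0.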

How the data were processed

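RNA sequencing of 10 mouse kidneys, 5 per treatment label, was compared. The submitters' processing notes list edgeR, featureCounts (Subread 1.4.6), STAR 2.5.3a and FastQC 0.11.2, with the build mm10. The sources used here do not give the annotation release, the strand setting or the treatment of multi-mapping reads. Per the file headers the authors deposited a log2 fold change, a log2 mean CPM, a likelihood-ratio score and p-values (raw and adjusted) for each transcript. Values of single samples were not analysed here, and depth is unknown. A count test had been foreseen for the case of single-sample values and was replaced by the authors' test.

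Transcripts were joined without version to GENCODE vM21, and 98.0% matched. The members and lists were chosen with earlier results of these data known. Genes named are members under p 0.05, the 4 largest and 4 smallest log2 fold changes of each subunit among members of at least 1 CPM, the 3 highest and 3 lowest core levels, the paralogs, the stalk proteins, the 2 smallest p of each list, and members with a further transcript of opposite sign. A few genes are not reported here. The standard error is the absolute log2 fold change over the square root of the score. If the samples are not independent mice, p-values measure only the spread between them. Trends were removed by loess (span 0.5) in R 4.3.3. Sequence windows were counted in Python 3.11.15. The scripts were tested on simulated data. The alternatives were other thresholds, adjustments, representative transcripts, level filters, centring and trend removal.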

Additional observations from a re-analysis of the deposited data

How the results depend on the processing

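No paired analysis was possible because values of single libraries were not analysed here, and no library could be left out in turn for the same reason. The count of members called was 0 in the authors' edgeR test, and also at an adjusted p under 0.1, with adjustment over 1 transcript per gene or over transcripts of at least 1 CPM, and with coding transcripts. At an unadjusted p under 0.05 it was 1. The number with a positive sign was 81 of 83 with coding transcripts, 66 of 66 from 10 CPM and 78 of 83 after centring on the median of coding genes, 0.08. With the length and level trend removed it was 44 of 80 and with GC content removed too 46 of 80, and the medians were 0.00954 and 0.00999. With the length and level trend removed, 14 named members changed sign and 12 did not. The 14 were Rpl35 (-0.15), Rpl17 (-0.14), Rpl11 (-0.13), Rps24 (-0.10), Rps15 (-0.0781), Rps6 (-0.0829), Rpl7l1 (-0.0728), Rpl13a (-0.0588), Rpl3l (-0.0564), Rps27l (-0.0570), Rpl15 (-0.0459), Rps16 (-0.0400), Rplp1 (-0.0110) and Rpl4 (-0.000509). The medians of ribosome assembly factors (-0.0307) and RNA polymerase I (-0.0445) also did. The trend itself was fitted on these values, so a change of sign there restates that the gene lay below others of its length and level. With the coding transcript, Rps29 changed sign to -0.0705. The share of promoters with a pyrimidine run was 47.6% from 20 bases before to 30 after the start and 66.7% for runs of at least 10, both chosen after seeing the data, as were the 100-base windows.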
